A study of Mus musculus with 17 samples.

Results

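The response of mouse brain to ischemia and reperfusion without any drug was read from 6 of the 17 arrays of the series, the pools titled Ischemia-reperfusion #1 to #3 and those titled Control #1 to #3. Each array carried RNA pooled from 6 brains, taken from the white and grey matter supplied by the middle cerebral artery. Control tissue was collected 6 h after saline. The ischemic mice had 1 h of ischemia followed by 6 h with flow restored. Whether they received saline is not labelled, and the labels give no strain, sex, age or surgical procedure. A further 6 pooled arrays, 3 drug control pools and 3 drug-treated ischemic pools given the catalytic antioxidant AEOL 10150, served to estimate the spread and as a reading in arrays that the comparison without the drug had not used. The descriptions of drug control pool 1 and drug-treated ischemic pool 1 lack the drug that their titles name. Pooling evens out differences between animals, so p-values concern the spread between pools of brains, which may in part be technical.

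When an artery of the brain is closed, neurons lose energy supply and ion gradients, glutamate accumulates, and calcium enters the cells. Return of blood adds oxidative stress and brings leukocytes to an activated endothelium. Tissue that survives the first hours transcribes immediate early genes, which encode transcription factors that need no new protein to be switched on, and heat shock genes, which are switched on by heat shock factor when proteins unfold. NF-kB and stress kinases add chemokines, adhesion molecules and their feedback inhibitors.

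Levels are log2 intensities after each array was scaled to the same trimmed mean, with values under an intensity of 109.5 set to that floor (log2 6.77). Of the probe sets, 10259 were above the floor on at least 3 of the 12 pooled arrays and were tested. Between 24.5% and 26.5% of the values of a control or ischemic array lay at the floor. Arrays of the same group correlated with r from 0.877 to 0.945 among control pools and from 0.893 to 0.934 among ischemic pools, against 0.857 to 0.961 between the groups. The neuronal marker Snap25, at 16.18, 16.28 and 16.28 in control and 16.30, 16.28 and 16.24 in ischemic pools, and the myelin gene Mbp, at 15.69, 15.71 and 16.06 and at 16.03, 15.89 and 15.79 were both near the top of the range. Actin control probe sets gave a 3' to 5' ratio, which rises as RNA degrades, of 1.65, 1.33 and 1.19 in control pools and 1.70, 1.53 and 1.17 in ischemic pools 1, 2 and 3.

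The response was lopsided. In limma over all probe sets tested, 22 rose (0.214% of those tested, adjusted p from 0.000266 to 0.0366) and 0 fell. At an unadjusted p under 0.05, 297 were higher (2.90%) and 126 lower (1.23%). These 423 were fewer than the 513 expected if no probe set differed. All 22 were higher in each of the 3 same-numbered pairs, and their groups did not overlap. With replicate number as a block, 34 rose (0.331%) and 1 fell (0.00975%), 20 of the rises being in both sets. The same tilt held without a test. Groups did not overlap for 418 higher (4.07%) and 308 lower probe sets (3%). Non-overlap of 3 against 3 arrays has an exact permutation p of 0.1, so by itself it is weak evidence for any gene. Those that also differed by 2-fold or more counted 134 higher probe sets (1.31%) and 37 lower ones (0.361%). With the floor at the 20th percentile these counts were 189 and 61, and with the floor at the 40th percentile 68 and 14. The tilt was smaller with quantile normalization, at 109 and 53, and with arrays scaled to a common median, at 107 and 52. With groups taken from the descriptions the counts were 87 and 20. Of the 134 and 37, 84 and 14 were above the floor on all 6 arrays, and 32 and 3 differed by 4-fold or more. Dim probe sets crossed the floor in both directions, 22 being at the floor in all control and above it in all ischemic pools and 11 the reverse. Omitting control pool 1, 2 or 3 left 9, 7 or 18 rises, and omitting ischemic pool 1, 2 or 3 left 1, 5 or 1. There were 0 when the 6 arrays were fitted alone, with 334 at an unadjusted p under 0.05 and a smallest adjusted p of 0.0699.

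**Figure D1:**
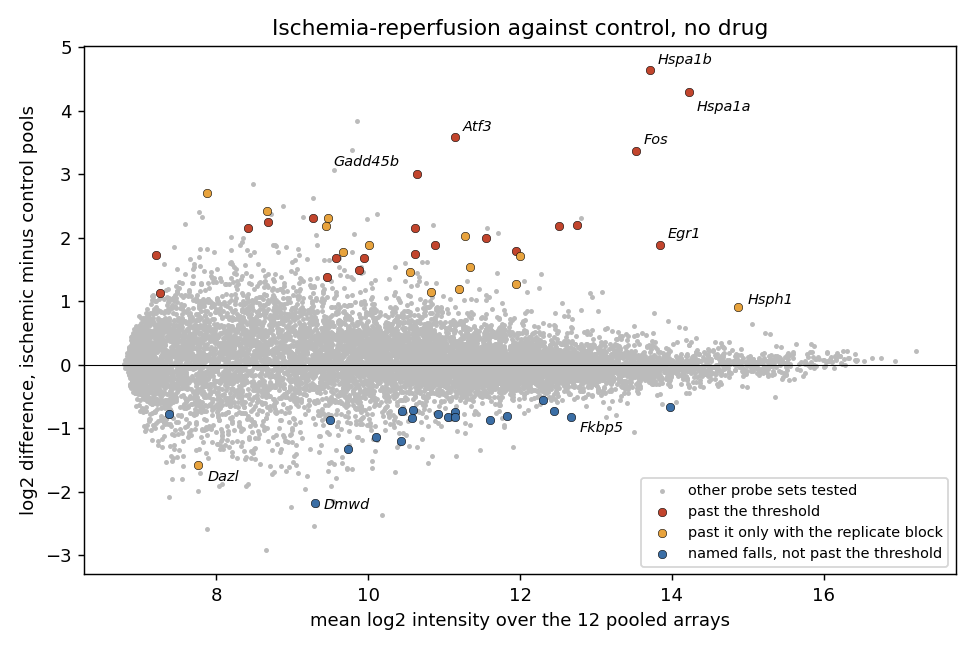
Each point is 1 of the 10259 probe sets tested, with its mean log2 intensity over the 12 pooled arrays on the horizontal axis and its log2 difference, ischemic minus control (n = 3 each), on the vertical axis. Red marks the 22 past the threshold, orange those past it only with the replicate block, and blue the named falls that were not past it, of which Dmwd lies lowest at -2.18.

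The tallest rises were those of the inducible members of the Hsp70 family, chaperones that bind unfolded protein. Hspa1a stood at 13.01, 12.04 and 11.25 in control pools 1 to 3 and at 16.46, 16.26 and 16.46 in ischemic pools. The control pools spread widely while the ischemic pools lay together near the top of the array's range, and the groups did not overlap. The log2 difference was 4.30 (SE 0.43, 19.6-fold, limma adjusted p = 0.00424). Hspa1b went from 12.55, 10.90 and 10.82 to 16.16, 15.79 and 16.25, a log2 difference of 4.64 (SE 0.51, 25-fold, adjusted p = 0.00612). The 2 genes are close copies, so how much each contributed to either signal cannot be told from these probe sets.

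The partners of these chaperones rose too. Dnajb1, a J-domain protein that passes substrates to Hsp70, went from 12.04, 11.50 and 11.34 to 14.01, 13.58 and 13.91 (4.60-fold, adjusted p = 0.0149 in limma). Bag3, a nucleotide exchange factor that links Hsp70 to autophagy, went from 10.21, 9.96 and 9.41 to 11.67, 11.65 and 11.90 (3.69-fold, adjusted p = 0.0155 in limma). Every ischemic pool lay above every control pool for both. Hsph1, the large Hsp110 chaperone that helps Hsp70 release its client, was already bright at 14.48, 14.43 and 14.34 and stood at 15.34, 15.44 and 15.22 after ischemia (1.88-fold). It passed with the replicate block (adjusted p = 0.0356 in limma) and not without it (0.0555).

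Among the 46 measured genes of heat shock proteins and chaperonins, 4 rose (5 with the block, against 0.275% and 0.412% of all 7280 genes) and 0 fell. In 11 of the 46 the ischemic pools lay above all control pools (23.9%, against 4.11% of all genes), in 1, Fkbp5, below them, and the median log2 difference was 0.24, against 0.02 for all genes. Constitutive members differed less. Hsp90aa1 had a log2 difference of 0.32 (SE 0.18) and Hspa8 of 0.29 (SE 0.19), neither past the threshold. Chaperones of other compartments lay between, with 0.69 (SE 0.20) for Hspa5 of the endoplasmic reticulum and 0.59 (SE 0.15) for the mitochondrial chaperonin Hspd1, also not past it. The collagen chaperone Serpinh1 had a log2 difference of 1.02 (SE 0.30), also short of the threshold.

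The inducible chaperones are shown with the 250 bases before their RefSeq start sites (GRCm38.p6), because heat shock factor binds repeats of the unit GAA and its complement there. Capitals mark a pair of such units facing each other, GAANNTTC or TTCNNGAA, searched on both strands. The windows of Hspa1a, at chr17:34972157-34972406 on the minus strand, and Hspa1b, at chr17:34959239-34959488 on the minus strand, were identical at 247 of 250 bases (98.8%). In both the pair began 104 bases before the start site. In Hsph1, at chr5:149636337-149636586 on the minus strand, it began 33 bases before it.
Hspa1a: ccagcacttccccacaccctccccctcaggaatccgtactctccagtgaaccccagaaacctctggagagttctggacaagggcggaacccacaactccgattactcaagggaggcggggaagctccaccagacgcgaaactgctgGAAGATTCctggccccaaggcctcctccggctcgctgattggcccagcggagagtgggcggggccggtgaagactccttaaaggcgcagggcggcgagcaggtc
Hspa1b: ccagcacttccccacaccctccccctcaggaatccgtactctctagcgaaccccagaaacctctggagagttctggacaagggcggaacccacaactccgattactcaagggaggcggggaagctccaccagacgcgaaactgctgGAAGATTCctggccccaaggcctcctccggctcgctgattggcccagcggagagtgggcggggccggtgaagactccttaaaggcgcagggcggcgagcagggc
Hsph1: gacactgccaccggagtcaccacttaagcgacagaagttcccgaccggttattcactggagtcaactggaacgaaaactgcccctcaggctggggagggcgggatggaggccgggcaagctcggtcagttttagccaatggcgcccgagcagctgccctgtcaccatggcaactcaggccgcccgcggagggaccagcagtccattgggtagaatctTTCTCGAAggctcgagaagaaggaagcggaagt
Either pair was present in 5 of the 26 rising genes that had a window (19.2%), namely Hspa1a, Hspa1b, Hsph1, Jun and Ifi207. It was present in 12.4% of the 5828 measured genes that had one. It was also present in 2 of 16 named falls with a window, Aebp2 and Colgalt1. The full element of 3 units, GAANNTTCNNGAA, was in none of the 26 and in 0.498% of the measured genes with a window. The windows of Dnajb1 and Bag3 hold neither pair, which says only that these letters are not in these 250 bases.

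**Figure D2:**
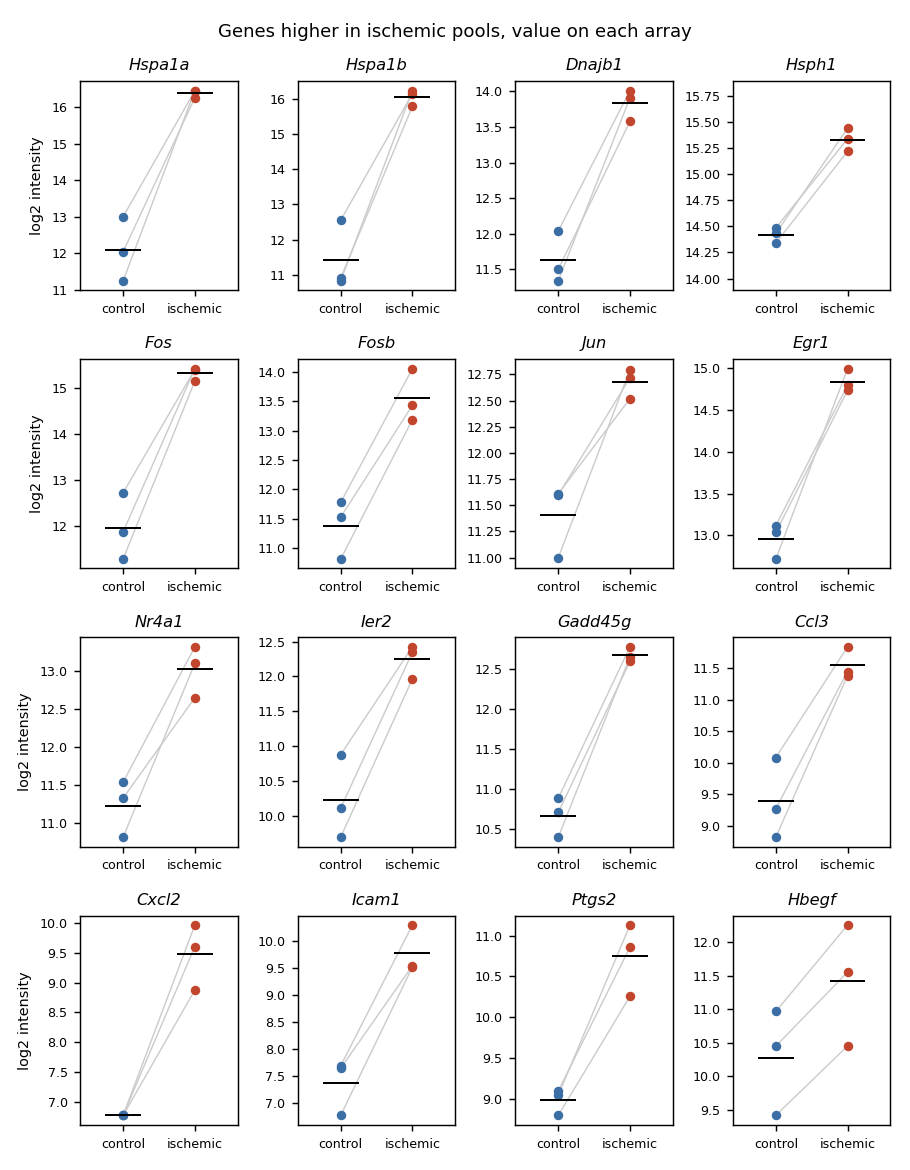
Each panel plots 1 gene's log2 intensity on each of the 3 control (blue) and 3 ischemic (red) pools, with grey lines joining pools of the same replicate number and black bars at the group means. Hspa1a and Fos spread over more than 1 log2 unit among control pools and lie close together after ischemia, whereas the Hbegf groups overlap and its 3 lines run almost parallel.

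Transcription factors of the basic leucine zipper class, which pair to form AP-1 and related complexes, held the firmest rise. Atf3, a stress-induced repressor, was at 9.32, 8.97 and 9.71 in control and 12.83, 13.10 and 12.84 in ischemic pools. No value of either group came within 3 log2 units of the other group. The log2 difference was 3.59 (SE 0.24, 12.0-fold, adjusted p = 0.000266 in limma), and among the named rises Atf3 alone passed in all 6 fits that left out 1 control or ischemic pool. A second Atf3 probe set gave 2.30 (adjusted p = 0.158, 0.0259 with the block).

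Fos stood at 12.72, 11.87 and 11.28 in control and 15.40, 15.42 and 15.15 in ischemic pools (10.3-fold, adjusted p = 0.00963 in limma). Its relative Fosb went from 11.53, 10.82 and 11.78 to 13.43, 13.18 and 14.05 (4.52-fold, adjusted p = 0.0171 in limma). The ischemic pools lay closer together than the control pools for Fos, while both groups of Fosb spread over almost 1 log2 unit. Neither pair of groups overlapped. Their dimer partners passed with the block alone. Junb went from 11.40, 10.92 and 11.13 to 12.74, 12.48 and 13.35 (limma adjusted p = 0.0123 with the block, 0.0586 without it). Jun went from 11.61, 11.60 and 11.00 to 12.52, 12.72 and 12.79 (adjusted p = 0.0489 and 0.0608 in limma). Jund, bright from the start at 15.34, 15.47 and 15.51, had a log2 difference of 0.32 (SE 0.15), not past the threshold.

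Of 30 measured genes of this class, 3 rose (5 with the block, against 0.275% and 0.412% of all genes). In 10 the ischemic pools lay above all control pools (33.3%, against 4.11% of all genes), with a class median of 0.36. The 3 that lay below all control pools (3.53% of all genes did) did not pass. They were Tef and Dbp, proline- and acid-rich factors of the circadian output, and Atf6, a sensor of the endoplasmic reticulum. Tef went from 14.20, 13.95 and 14.18 to 13.36, 13.41 and 13.69 (log2 difference -0.62, SE 0.22). Dbp had a log2 difference of -0.89 (SE 0.35), and its lowest value by more than 1 log2 unit was that of ischemic pool 3. Atf6 had a log2 difference of -0.46 (SE 0.21).

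Zinc finger factors and other immediate early genes moved most as a class, with a median log2 difference of 0.82 over 17 genes. Of these, 15 were higher and 11 lay above all control pools (64.7%, against 4.11% of all genes). In this class 1 passed without the block and 4 with it (0.275% and 0.412% of all genes did). Egr1, the activity-induced factor used as a marker of neuronal firing, went from 13.12, 13.03 and 12.72 to 14.80, 14.73 and 14.99 (3.70-fold, adjusted p = 0.00559 in limma). The groups did not overlap. A second, dimmer Egr1 probe set gave 0.73, not past the threshold.

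Ier2, Zfp36 and Klf4 passed with the block alone. Ier2, a short-lived nuclear protein, went from 10.88, 9.69 and 10.11 to 12.42, 11.96 and 12.35, and its control pools followed the same order as its ischemic pools (adjusted p = 0.00403 with the block, 0.0550 without it). Zfp36, which binds AU-rich elements and speeds the decay of cytokine mRNAs, went from 10.97, 10.13 and 10.17 to 12.11, 11.79 and 11.98 (0.0347 and 0.0725). Klf4, a Krüppel-like factor also active in endothelium, went from 9.75, 10.30 and 9.78 to 11.37, 11.82 and 11.03 (0.00998 and 0.154). For each of them the lowest ischemic pool was above the highest control pool.

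The orphan nuclear receptor Nr4a1 went from 10.81, 11.33 and 11.54 to 13.09, 12.64 and 13.31 (3.46-fold, adjusted p = 0.0171 in limma). It was the 1 gene past the threshold among 20 nuclear receptors (0.275% of all genes passed), whose median was 0.16. It was also the 1 whose groups did not overlap (5%, near the 4.11% of all genes). The 250 bases before its RefSeq start site, at chr15:101266596-101266845 on the plus strand, are shown because they hold the core TGACG of the cyclic AMP response element, or its complement, 4 times (in capitals).
Nr4a1: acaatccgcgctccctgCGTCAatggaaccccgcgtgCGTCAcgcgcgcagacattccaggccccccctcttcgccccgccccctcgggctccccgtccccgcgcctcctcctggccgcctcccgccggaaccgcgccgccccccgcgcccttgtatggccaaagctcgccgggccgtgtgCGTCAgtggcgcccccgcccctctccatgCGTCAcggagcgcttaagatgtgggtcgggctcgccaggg
That core was in 9 of the 26 rising genes with a window (34.6%), 6 of 16 such falls and 29.4% of measured genes with a window. The full palindrome TGACGTCA was in none of the 26 and in 2.80% of these measured genes. The AP-1 letters TGANTCA were in 4 of the 26 (15.4%), Bag3, Gfpt2, Procr and Tnfaip6, against 6.52%.

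Feedback regulators that the same signals switch on formed the next group. Gadd45g, a growth arrest and stress protein that binds stress kinases, went from 10.71, 10.89 and 10.40 to 12.59, 12.77 and 12.65 (4.01-fold, adjusted p = 0.0105 in limma). Its homologue Gadd45b went from 9.58, 9.83 and 7.95 to 12.19, 12.47 and 11.72 (8.05-fold, adjusted p = 0.0213 in limma), and a second probe set gave a log2 difference of 3.06 that did not pass. Gadd45g was even within each group, whereas control pool 3 and ischemic pool 3 were each the lowest of their group for Gadd45b.

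Socs3, which ends cytokine signalling through Jak kinases, stood no lower than 9.71 in control pools (mean 9.83, SD 0.15) and at 11.45, 11.82 and 11.44 in ischemic pools (3.33-fold, adjusted p = 0.0155 in limma). A brighter Socs3 probe set gave 1.20 (adjusted p = 0.76). Nfkbiz, a nuclear inhibitor-like regulator of NF-kB, went from 8.46, 9.03 and 8.81 to 10.37, 10.52 and 10.46 (3.21-fold, adjusted p = 0.0226 in limma). Neither gene's groups overlapped.

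The MAP kinase phosphatases and Sprouty inhibitors, which shorten kinase signals, had a median of 0.63 over 8 genes, 7 of them higher and 0 past the threshold. Dusp1 went from 12.84, 12.38 and 12.52 to 13.66, 13.57 and 13.93 (log2 difference 1.14, SE 0.20), without overlap. Dusp6 went from 12.20, 11.01 and 11.55 to 13.35, 12.11 and 12.74 (1.15, SE 0.39). Its groups overlapped, although each ischemic pool was above the control pool of the same number. Klf10, Klf6, Btg1, Btg2, Ier3, Egr2 and Zfp36l1 of the zinc finger list also lay above all control pools without passing, with log2 differences of 0.82, 1.07, 0.70, 0.85, 1.21, 1.02 and 0.54.

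Of the inflammatory and vascular genes, Ccl3, Tnfaip6, S100a8 and Procr rose, and Cxcl2, Icam1 and Ptgs2 passed with the block alone. The chemokine Ccl3, which draws monocytes and neutrophils, went from 9.27, 8.82 and 10.09 to 11.45, 11.38 and 11.84 (4.47-fold, adjusted p = 0.0188 in limma). Cxcl2, the neutrophil chemokine, did not leave the floor in any control pool and reached 8.87, 9.96 and 9.60 in ischemic pools, at least 6.53-fold higher (adjusted p = 0.0440 with the block, 0.113 without it). With every control value at the floor, that group adds nothing to the spread, so p-values of such genes are too small. The window before the Cxcl2 start site, at chr5:90903649-90903898 on the plus strand, is shown because it holds the kappa-B motif, bound by NF-kB, as 2 overlapping matches (in capitals).
Cxcl2: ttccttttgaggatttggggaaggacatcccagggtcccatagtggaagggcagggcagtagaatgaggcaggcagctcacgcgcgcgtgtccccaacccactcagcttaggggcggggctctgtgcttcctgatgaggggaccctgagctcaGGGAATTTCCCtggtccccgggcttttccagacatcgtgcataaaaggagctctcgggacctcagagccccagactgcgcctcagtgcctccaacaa
The kappa-B motif, searched on both strands, was in 3 of 26 rising genes with a window (11.5%), namely Cxcl2, Fos and Fosb. It was in 2 of 16 such falls and in 5.42% of measured genes with a window.

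Icam1, the endothelial adhesion molecule that leukocytes hold on to, was at 7.69, 7.65 and the floor in control and at 10.30, 9.54 and 9.52 in ischemic pools (adjusted p = 0.0139 with the block, 0.0725 without it). It was the 1 gene without overlap among 32 integrins and leukocyte adhesion genes (3.1%, near the 4.11% of all genes), whose median was 0.03. Ptgs2, the inducible cyclooxygenase, went from 9.04, 9.09 and 8.79 to 11.13, 10.86 and 10.25 (adjusted p = 0.0325 and 0.320 in limma). It was the 1 gene without overlap among 19 genes of prostaglandin and leukotriene synthesis and reception (5.3%, near the 4.11% of all genes). Tnfaip6, which binds hyaluronan in inflamed matrix, stood at 7.62, 7.36 and 8.03 in control pools and no lower than 9.70 in ischemic pools (mean 9.92, SD 0.20, 4.76-fold, adjusted p = 0.0366 in limma, 0.0569 with the block). S100a8, a calcium-binding protein of neutrophils, went from 7.01, the floor and 7.87 to 9.54, 9.63 and 8.94 (4.45-fold, adjusted p = 0.0255 in limma, 0.0606 with the block).

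Neutrophil markers as a list were less clear. Of 11 measured, 3 lay above all control pools (27.3%, against 4.11% of all genes) and S100a8 passed. The summed level of the list, however, was 9329 to 15700 in control and 12370 to 15550 in ischemic pools, which overlap. The neutrophil-associated gene Lcn2 had log2 differences of -0.02 in its bright and 0.87 in its dim probe set, neither past the threshold. The part of leukocytes in the rises of S100a8 and the chemokines was not tested.

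Of 23 genes of clotting control 1 passed (0.275% of all genes did), with a median of 0.13. Procr, the endothelial receptor for protein C, rose from 9.03, 8.74 and 8.48 to 10.26, 10.34 and 9.79 (2.61-fold, adjusted p = 0.0323 in limma). Protein C itself, Proc, lay below all control pools at 9.09, 9.30 and 8.50 against 9.71, 9.77 and 9.34 (log2 difference -0.64, SE 0.27, not past the threshold). The urokinase receptor Plaur and tissue plasminogen activator Plat lay above all control pools, with log2 differences of 1.64 (SE 0.71) and 0.54 (SE 0.24), while tissue factor F3 had -0.01 (SE 0.19).

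Several genes named here lay above all control pools without passing. The widest gaps short of the threshold, picked after their values were seen, were those of the chemokines Cxcl1 and Ccl2. Cxcl1, a relative of Cxcl2, went from 8.96, 8.53 and the floor to 11.76, 12.33 and 11.66 (log2 difference 3.83, adjusted p = 0.0681 in limma), and Ccl2, which draws monocytes, from 8.90, 8.06 and 7.92 to 11.83, 12.38 and 10.81 (3.38, adjusted p = 0.0608 in limma). Il6 stayed at the floor in each control pool and reached 9.91, 9.20 and 7.84 in ischemic pools, and the proto-oncogene Myc had a log2 difference of 1.28 (SE 0.50). The inhibitor of apoptosis Birc3 went from 8.86, 7.66 and 7.43 to 10.08, 10.11 and 9.87 (2.04, SE 0.50). The complement receptor C5ar1 had 1.67 (SE 0.57), and the matricellular protein Ccn1, which is induced within an hour by growth factors, had 2.29 (SE 0.44). A reference list shows how medians of dim genes read here. Its 25 transcripts typical of other organs had a median of 0.25, with 1 gene (Zp3) above all control pools. Among 37 Bcl2 family and caspase genes and 48 matrix genes, 2 and 4 lay above all control pools (5.4% and 8.3%, against 4.11% of all genes). Their medians of 0.31 and 0.20 do not stand out from that of the reference list. Nor does the median of 0.24 for the heat shock list, although 23.9% of its genes lay above all control pools. That list also holds bright genes, however, for which a list of dim ones is an unlike baseline.

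A few rises belong to no such class. Aldh1a3, which makes retinoic acid, stayed at the floor in each of the 3 control pools and reached 8.34, 8.75 and 8.42 in ischemic pools, at least 3.31-fold higher (adjusted p = 0.00321 in limma). Gfpt2, the entry enzyme of hexosamine synthesis, went from 8.54, 8.68 and 8.56 to 10.10, 10.33 and 10.37 (3.19-fold, adjusted p = 0.0189 in limma). Gfpt2 had tight groups far apart. For Aldh1a3 every control value was at the floor, so that group adds nothing to the spread and its p-value is too small. Of 12 genes of polyamine and hexosamine synthesis Gfpt2 was the 1 that passed (0.275% of all genes did), and the median was 0.06. The polyamine enzyme Odc1 had a log2 difference of 0.47 (SE 0.24).

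Rrad, a small GTP-binding protein that restrains calcium channels, rose from 8.77, 8.65 and 9.44 to 10.26, 10.49 and 10.57 (2.80-fold, adjusted p = 0.0226 in limma). Its relative Gem was at 8.50 and at the floor in the other two control pools and at 9.21, 9.03 and 9.60 after ischemia, not past the threshold. Ifi207, an interferon-inducible gene, rose from 6.83 and the floor in the other two pools to 7.99, 7.93 and 7.83 (2.18-fold, adjusted p = 0.0366 in limma), close enough to the floor that its fold depends on it. A probe set shared by Thbs1 and Pald1 rose 4.94-fold (adjusted p = 0.0171 in limma) and cannot be assigned to either gene.

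Other genes passed only when pools were paired by number. Hbegf, a growth factor of the epidermal growth factor family, was at 9.42, 10.97 and 10.45 in control and 10.45, 12.26 and 11.55 in ischemic pools. The groups overlap, yet each pair differed by a similar amount (adjusted p = 0.0262 with the block, 1 without it). Ifrd1, a regulator of differentiation, went from 8.67, 10.09 and 8.52 to 10.94, 11.69 and 10.30 (0.00943 and 0.590). Phlda1, a pleckstrin-like protein induced by growth factors, went from 10.55, 10.98 and 10.32 to 11.54, 12.34 and 11.53 (0.0137 and 0.429). Bdnf, the activity-dependent neurotrophin, was highest in pool 2 of both groups, at 13.20, 13.92 and 13.24 in control and 14.16, 14.61 and 14.03 in ischemic pools (log2 difference 0.81, SE 0.30), and did not pass in either fit.

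The falls were smaller and none passed in limma without the block. Among probe sets that had 1 gene symbol, no overlap and a mean above the floor in both groups, the 20 with the smallest unadjusted p were lower by 1.47-fold to 4.53-fold, with adjusted p from 0.165 to 0.844. Of the 20, 17 were above the floor on all 6 arrays. Because non-overlap was part of this choice, it is no further support for them.

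The 1 fall past the threshold with the block was that of a Dazl probe set, which went from 8.15, 9.24 and 8.21 to the floor, 7.31 and the floor (log2 difference -1.58, SE 0.33, adjusted p = 0.0377 with the block and 0.165 without it). Dazl encodes an RNA-binding protein of germ cells, and a second Dazl probe set gave 0.49. The next smallest p belonged to Fkbp5, a cochaperone of the glucocorticoid receptor that glucocorticoids induce. It went from 13.05, 12.87 and 13.00 to 11.91, 12.38 and 12.17 (log2 difference -0.82, SE 0.18, adjusted p = 0.251 in limma). Sgk1, also induced by glucocorticoids, had a log2 difference of -0.01 (SE 0.19).

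Neuronal signalling genes made up part of the list of falls. Rasgrp2, a calcium-regulated exchange factor for Rap1 that is abundant in striatum, went from 10.21, 10.74 and 10.97 to 9.21, 9.46 and 9.84 (log2 difference -1.13, SE 0.33). The dopamine receptor Drd2 went from 11.50, 11.33 and 11.72 to 10.20, 10.62 and 11.24 (-0.83, SE 0.25), ischemic pool 3 lying closest to the control pools. The calcium channel subunit Cacna2d3 went from 12.66, 12.65 and 12.56 to 12.07, 11.89 and 12.24 (-0.55, SE 0.16).

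Others among the falls serve general cell functions. Ulk2, a kinase that starts autophagy, went from 11.78, 11.51 and 11.48 to 10.82, 10.97 and 10.50 (-0.83, SE 0.20). Xdh, the xanthine oxidoreductase that can release superoxide, went from 9.57, 10.28 and 9.72 to 9.24, 9.03 and 8.70 (-0.87, SE 0.24). Pdxk, which makes the active form of vitamin B6, was bright, and lower mainly in ischemic pool 1, at 14.18, 14.23 and 14.24 against 13.15, 13.79 and 13.71 (-0.66, SE 0.21). The zinc transporters Slc30a4 and Slc39a9, the motor Myo5b and the receptor Fgfr3 had log2 differences of -0.87, -0.74, -0.75 and -0.78. Dmwd, Tarbp2, H2-DMa, Zkscan14, Colgalt1, Cant1 and Aebp2 had -2.18, -1.20, -1.33, -0.84, -0.78, -0.82 and -0.72. Second probe sets of Slc30a4, Cant1 and Pdxk gave 0.82, 0.45 and 0.09, against the direction of the named ones.

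**Figure D3:**
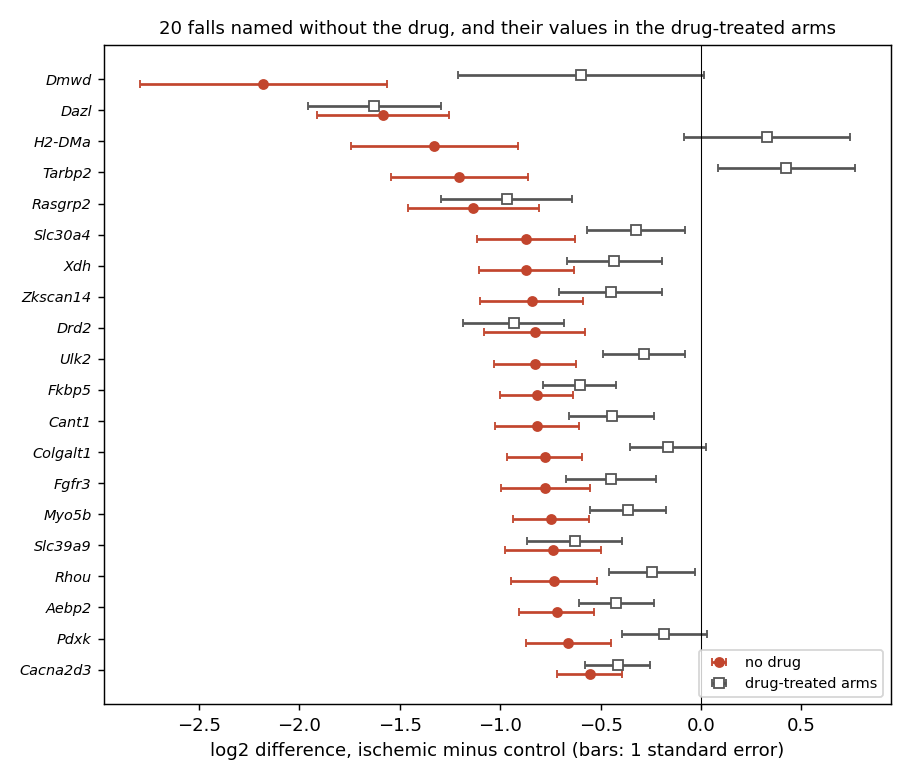
For the 20 named falls, points give the log2 difference, ischemic minus control, without the drug (red circles) and in the drug-treated arms (open squares), with bars of 1 standard error (n = 3 pools per group). In the drug-treated arms 18 of the 20 lie below 0, and Tarbp2 (0.42) and H2-DMa (0.33) lie above it.

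Of the classes of neuronal genes, dopamine and cyclic AMP signalling and the ionotropic glutamate receptors had the lowest medians. In the first, 18 of 25 genes were lower, with a median of -0.20, and 4 lay below all control pools (16.0%, against 3.53% of all genes). Beside Rasgrp2 and Drd2 these were Pde1b, a calmodulin-dependent phosphodiesterase, with -0.48 (SE 0.21), and the adenylyl cyclase Adcy6, with -0.37 (SE 0.24). Of the glutamate receptors 11 of 13 were lower, with a median of -0.25, but only the kainate receptor subunit Grik5 lay below all control pools (13.29, 12.87 and 13.19 against 12.42, 12.21 and 12.77). The abundant AMPA receptor subunit Gria2 had -0.17 (SE 0.16). Neither class held a gene past the threshold.

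Potassium channels differed little as a class, with 14 of 32 measured genes higher, 18 lower and a median of -0.08. Of these, 0 lay above all control pools and 3 below (9.38%), against 4.11% and 3.53% of all genes. The 3 were Kcna5 (-1.75, SE 0.58), the lipid-sensitive leak channel Kcnk2 (-0.47, SE 0.19) and the auxiliary subunit Kcnab1 (-0.36, SE 0.18). In synaptic vesicle and SNARE genes 25 of 33 were lower, with a median of -0.11. Below all control pools lay 1 of them, Stxbp3 (3.03%, near the 3.53% of all genes). GABA receptors, synthesis and uptake had 0 of 13 genes without overlap and a median of 0.01, which turns negative with quantile scaling and with median scaling. Tubulins and neurofilaments also had 0 of 36, with a median of -0.05.

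Housekeeping classes showed little. Of 35 proteasome subunits 1 lay below and 0 above all control pools (3.53% and 4.11% of all genes did), with a median of -0.10. Of 30 cytosolic ribosomal proteins 1 lay above (Rps27), of 34 translation factors 0 did either, and of 27 genes of the tricarboxylic acid cycle 1 lay below. In each of these classes 0 genes passed with or without the block. In the actin cytoskeleton 35 of 43 genes were higher, with a median of 0.19, against 0.02 for all genes. This was below the 0.25 of the reference list of other organs, whose genes are dim. Above all control pools lay 5 (11.6%, against 4.11% of all genes), none past the threshold. They were the Arp2/3 subunit Arpc5 (0.81), the lamin Lmna (0.52), radixin Rdx (0.55), tropomyosin Tpm4 (0.47) and vinculin Vcl (0.37).

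Amino acid response genes driven by Atf4 had 21 of 25 genes higher and a median of 0.32, with 0 past the threshold. The reference list of transcripts typical of other organs had 18 of 25 higher and a median of 0.25, so the class median stands out little. Ddit3, the cell death factor CHOP, went from 10.84, 10.74 and 10.05 to 11.29, 11.67 and 11.23 (0.85, SE 0.32). Ppp1r15a, which restores translation by dephosphorylating the initiation factor eIF2, was at 10.34, 10.24 and the floor in control and 11.69, 11.60 and 11.20 in ischemic pools. The asparagine synthetase gene Asns had -0.06 (SE 0.20) and the amino acid carrier subunit Slc3a2 0.04 (SE 0.20). Genes of glucose transport and the blood-brain barrier had 3 of 21 above all control pools (14.3%, against 4.11% of all genes). The gap junction protein Gjb2 was at 13.50, 13.55 and 13.26 against 12.62, 12.29 and 12.02 (1.13, SE 0.23). The others were the drug efflux pumps Abcb1a (0.97, SE 0.38) and Abcg2 (0.50, SE 0.25).

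**Figure D4:**
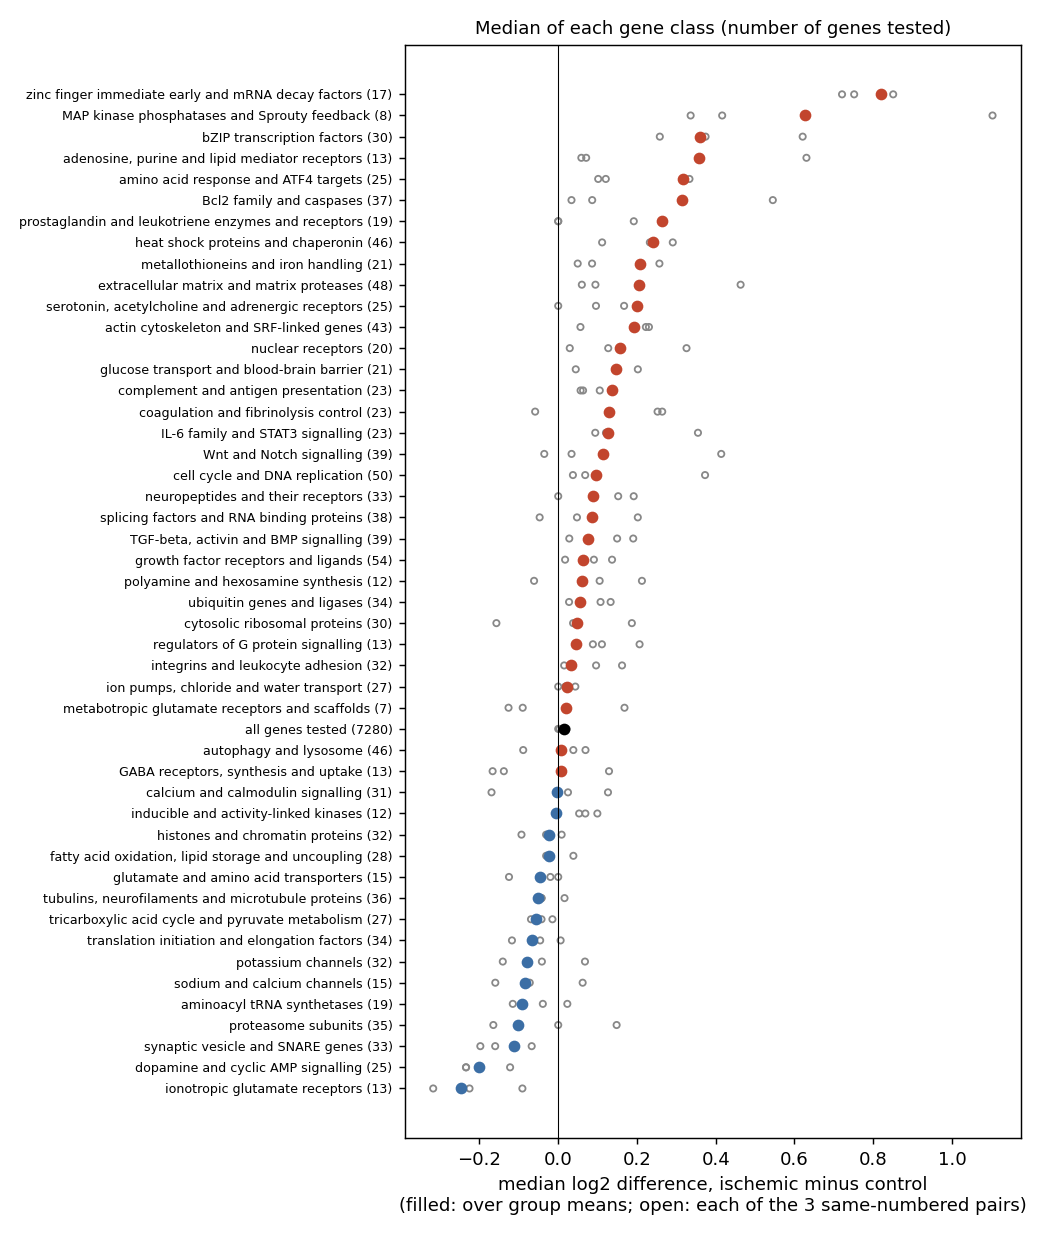
Filled points give the median log2 difference, ischemic minus control, over the measured genes of each class (number in brackets), and open points the same median in each of the 3 same-numbered pairs. Zinc finger immediate early genes lie highest at 0.82, ionotropic glutamate receptors lowest at -0.25, and all genes (black) at 0.02.

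Scaling moved these medians together. When arrays were scaled to the median of their positive values, the median over all genes went from 0.02 to -0.11, a shift of -0.13, and with quantile normalization it was -0.02. Relative to all genes, most class medians kept their sign under every scaling tried, so keeping it does not set a class apart. Among them were those of the bZIP, zinc finger, phosphatase, heat shock, actin, Atf4, glutamate receptor, dopamine and potassium channel classes. So did the median of the reference list of other organs. The median of TGF-beta, activin and BMP signalling (0.08 over 39 genes) was among those that did not. Above all control pools lay 5 of its genes (12.8%, against 4.11% of all genes). They included the activin subunit Inhba, with a log2 difference of 0.73 (SE 0.22).

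Of the striatal, microglial and red blood cell markers 0 passed, but their summed levels did not overlap between the groups. All 7 measured striatal neuron markers had a log2 difference below 0 (median -0.48). In 4 of them, Rasgrp2, Drd2, Pde1b and Penk, the ischemic pools lay below all control pools (57.1%, against 3.53% of all genes). Penk, the precursor of enkephalins, was at 15.38, 15.78 and 15.78 in control and 14.89, 15.31 and 15.21 in ischemic pools (log2 difference -0.51, SE 0.25). The summed level of the list was 71680 to 83420 in control and 49960 to 60330 in ischemic pools, without overlap. The sum for neurons in general overlapped between the groups, at 253700 to 289300 and 236400 to 273800. In bulk tissue, fewer cells of a type and less RNA per cell cannot be told apart. Striatal cell number and the share of striatum in the dissected tissue were not measured, and their part in the lower dopamine and cyclic AMP genes was not tested.

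Microglia and macrophage markers summed to 31890 to 39470 in control and 40550 to 44650 in ischemic pools. The 2 of 10 without overlap (20%, against 4.11% of all genes) were the endotoxin coreceptor Cd14 and the lysosomal Cd68 (0.53, SE 0.23). Cd14 was at 12.95, 12.31 and 12.07 against 13.55, 13.63 and 13.35 (1.07, SE 0.24). The sums are of linear intensities, and the rise of Cd14 alone is large enough to make the gap between them. They therefore say little about the other markers. Of the 10 markers 7 were higher and 3 lower, with a median of 0.27, against 0.25 for the reference list of other organs. Red blood cell markers summed to 10760 to 13810 and 17450 to 21530, but in the drug-treated arms the sums overlapped (11070 to 14280 and 12530 to 19990). Their hemoglobin genes Hbb-b2 (2.50, SE 0.59) and Hba-a1 (1.43, SE 0.43) lay above all control pools, while the membrane proteins Ank1 (0.01) and Slc4a1 (-0.37) and the heme enzyme Alas2 (0.44) did not. Blood left in the tissue was not measured, and its part in the rises of genes from blood cells was not tested. Sums overlapped between control and ischemic pools for astrocytes (119000 to 148400 and 135500 to 147600), oligodendrocytes (104000 to 128400 and 125500 to 146900) and endothelium with mural cells (13560 to 21590 and 16110 to 24800).

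**Figure D5:**
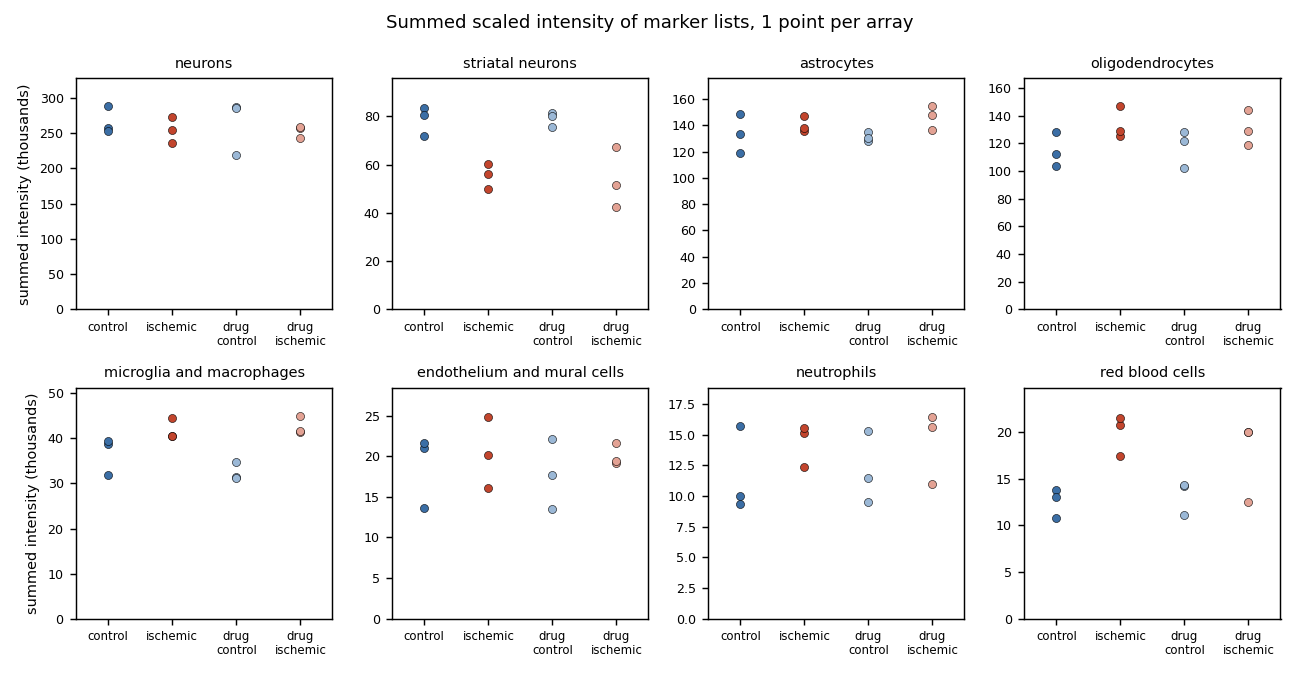
Each point is 1 array, and the vertical axis is the summed scaled intensity (from 0) of the measured markers of a cell type, for control, ischemic, drug control and drug-treated ischemic pools. Striatal neuron sums are lower in both ischemic groups than in their control groups without overlap, and the red blood cell sums of control and ischemic pools do not overlap.

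The drug-treated arms gave a reading of the named probe sets in arrays that the comparison without the drug had not used, though both share the estimate of the spread. Of the 22 rises, 20 were higher in drug-treated ischemic than in drug control pools, with a median log2 difference of 1.58, and 9 passed over all probe sets there (0.0877%): Atf3, Hspa1a, Hspa1b, Egr1, Fos, Gadd45g, Dnajb1, Bag3 and Nr4a1. Hspa1a was at 16.30, 16.25 and 16.26 against 12.90, 11.99 and 11.57. Of the 14 rises past the threshold only with the block, 14 were higher, 10 of them at an unadjusted p under 0.05 (2.07% of all probe sets) and 0 past the threshold. Of the 418 probe sets higher without overlap, 69.1% were higher with the drug and 22.7% reached that p. Without the 2 arrays with unlike descriptions, which leaves 2 pools a group, 3 passed in place of 9.

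The exceptions were Aldh1a3 and Gfpt2. Aldh1a3 was at the floor on all 6 arrays given the drug. Gfpt2 was at 10.69, 10.90 and 10.52 in drug control and 10.58, 10.36 and 9.70 in drug-treated ischemic pools, so that its level with the drug and no ischemia was above that of every ischemic pool without the drug. The test of the difference between the 2 ischemia responses gave an adjusted p of 0.155 for Aldh1a3 and 0.307 for Gfpt2 in limma, and 0 probe sets passed it, with unadjusted p values of 1.51e-05 and 5.98e-05.

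Of the 20 named falls, 18 were lower with the drug too, with a median of -0.43, 7 of them at an unadjusted p under 0.05 (35.0%, against 1.37% of all probe sets) and 0 past the threshold. Over all probe sets 53.4% were lower in that arm. Of the 308 probe sets lower without overlap, 71.8% were lower with the drug and 7.47% reached that p. The named falls were picked by p-values that use the shared spread, so a small spread favours them in both arms. All probe sets are therefore an unlike baseline, and the shares are no test. The 7 named falls at that p were Dazl (-1.63), Rasgrp2 (-0.97), Drd2 (-0.93), Slc39a9 (-0.63), Fkbp5 (-0.60), Aebp2 (-0.42) and Cacna2d3 (-0.42). Drd2 was at 11.66, 11.60 and 11.67 in drug control and 10.60, 10.87 and 10.66 in drug-treated ischemic pools, and Fkbp5 at 12.91, 13.23 and 13.09 against 12.53, 12.32 and 12.56, with no overlap for either. Among probe sets without overlap and 2-fold or more apart, 98 of the 134 higher ones (73.1%) and 19 of the 37 lower ones (51.4%) had the same direction with the drug, against 46.4% higher and 53.4% lower over all probe sets, and the difference between these shares was not tested.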

How the data were processed

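Each array has 1 linear intensity for every probe set. The deposited intensities were made by the authors with software and scaling not given in the sources used here, and some lie below 0. All 6 arrays of the comparison had been deposited with the same mean between the 2nd and 98th percentiles. Each array was scaled to a trimmed mean of 2500, values under the 25th percentile of the 12 pooled arrays (109.5) were raised to that floor, and values were put on the log2 scale. Affymetrix control probe sets (66) were dropped. Probe sets exceeding the floor on 3 or more of the 12 pooled arrays were tested with limma 3.58.1 in R 4.3.3, with all 12 arrays sharing the spread (8 residual and 2.23 prior degrees of freedom), two-sided, and Benjamini-Hochberg adjustment over all probe sets at 0.05. The script was tested on simulated data. An exact permutation test of 3 against 3 cannot go below p = 0.1 and was not used. Arrays carry no read depth, and their number limits the precision.

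Groups come from the titles. Control and ischemic pools of the same number deviated together (correlations of 0.455, 0.470 and 0.571 over the probe sets), so the numbers pair them, and the fit with replicate number as a block is printed where it changes a call. The pairing is seen in the data; no label explains the numbers.

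Genes come from the platform annotation, updated by Entrez number (10839 of the 10855 probe sets with 1 symbol, 396 having several and 1237 none). Named genes were every probe set past the threshold with or without the block, the 20 falls of smallest p with 1 symbol, both means above the floor and no overlap, and in each of 61 gene lists up to 4 members of smallest p and 2 of highest level. Other genes named as lying above or below all control pools were chosen after their values were seen. For lists, each of 7280 genes is represented by its brightest probe set, and no set test was run. Not every list is described in words, and 1 named fall is not reported here. The members and lists were chosen with earlier results of these data known. Promoter windows are from RefSeq (GRCm38.p6) and matched 5828 of 8456 measured genes by symbol.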

Additional observations from a re-analysis of the deposited data

How the results depend on the processing

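The count of rises in limma was 22 as reported. It was 13 with quantile normalization, 11 with arrays scaled to a common median, 11 in the 9 arrays without the drug-treated ischemic pools, and 34 with replicate number as a block in 12 arrays. It was 0 in the 6 arrays alone and 0 with these 6 as deposited (334 probe sets at an unadjusted p under 0.05 in each), and 0 with the replicate block in the 6 arrays (883). Between 20 and 33 passed with a floor at the 20th or 40th percentile, no filter, a stricter filter, an intensity trend, the actin ratio as a covariate or groups from the descriptions, and 15 with the block in 9 arrays. The 20th percentile and that last fit were chosen after seeing the data. A planned floor at the 10th percentile was not run, because that percentile lies below 0 and has no logarithm. Leaving out 1 control or ischemic pool gave 1 to 18 rises and 0 to 1 falls. The count of falls was 1 with the block (Dazl) and 1 with no filter on low values (Pde4dip). Among the named rises, Atf3, Fos, Hspa1a and Hspa1b passed in all 12 settings with 9 or more arrays and no pool left out, and S100a8 and Tnfaip6 in 3. The cause of these changes was not tested. The 9 rises passing in the drug-treated arms were 3 without the 2 arrays with unlike descriptions and 8 or 9 with quantile normalization, the 20th percentile floor or the replicate block. Of 1168 recomputed differences of named probe sets, 906 stayed on the same side of the threshold, 219 lost their call, 43 gained one and 0 turned. Only the 22 rises had a call to lose, so all 219 losses were theirs. The 906 include falls and block-only rises that stayed short of the threshold. The count of falls of 2-fold or more without overlap, 37 as reported, was 61 with the 20th percentile floor and 14 with the 40th percentile floor. It was 53 with quantile normalization, 52 with arrays scaled to a common median and 20 with groups from the descriptions. The count of such rises, 134 as reported, was 109, 107 and 87 in the same settings. Precision is limited by 3 pools a group, and for probe sets near the floor by their signal over background.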

Other observations

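Among histones and chromatin proteins 3 of 32 genes lay below all control pools and 0 above (3.53% and 4.11% of all genes did), namely the heterochromatin protein Cbx5 (13.16, 13.05 and 12.95 against 12.62, 12.55 and 12.47), the chromatin remodelling subunit Smarcc1 (log2 difference -0.39, SE 0.35) and the histone methyltransferase Ezh1 (-0.07, SE 0.20), 0 of them past the threshold. In the drug-treated arms Cbx5 had a log2 difference of -0.45. Regulators of G protein signalling differed among themselves, with Rgs16 above all control pools (log2 difference 0.81, SE 0.24) and Rgs11 below them (-0.75, SE 0.30). The cyclin Ccna2 was at the floor, 7.54 and the floor in control and 8.91, 9.23 and 8.49 in ischemic pools, and had a log2 difference of -0.32 in the drug-treated arms.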
